A study of Mus musculus with 4 samples.

Results

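The genes described here are the 5 uroplakin genes *Upk1a*, *Upk1b*, *Upk2*, *Upk3a* and *Upk3b* and 3 genes of urothelial differentiation, *Krt20*, *Grhl3* and *Pparg*. They were taken by symbol from a table of expression levels, in which all 8 were found once among 25819 rows. The levels came from RNA-Seq of whole urogenital sinus (UGS), the embryonic tube at the base of the bladder from which the urethra and the prostate develop. The study asked how loss of the T-box transcription factor *Tbx18*, which is expressed in UGS mesenchyme, alters gene expression there before and around the start of prostate budding.

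There were 4 libraries, each from RNA of 3 male embryos that was pooled: wild type at E16.5, *Tbx18Gfp/Gfp* at E16.5, wild type at E18.5 and *Tbx18Gfp/Gfp* at E18.5. Embryos came from matings of *Tbx18Gfp/+* mice on a B6C3-F1 hybrid background, and wild type embryos were littermates of the mutants. The *Gfp* allele is a knock-in that serves as a null, carried in every cell, and was not restricted to 1 tissue. Homozygous nulls die around birth, and no later stage of this genotype was profiled by RNA-Seq. No group had a replicate, hence no SD, test or p-value is given, and these libraries do not show the spread between embryos. For several genes the study also ran RT-qPCR on individual UGS samples and reported that it matched the pools well. Those values were not analysed here. The intervals given are 95% exact intervals from estimated read numbers. They cover counting error only.

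The urothelium is the stratified epithelium that lines the bladder and proximal urethra. Its outermost umbrella cells carry rigid plaques of asymmetric membrane on the side facing the urine, which form much of the permeability barrier. The plaques are built from uroplakin pairs: the tetraspanins UPK1A and UPK1B each bind a single-span partner, UPK1A with UPK2 and UPK1B with UPK3A. UPK3B is a relative of UPK3A that can also pair with UPK1B and is made by mesothelium as well. Keratin 20 is a filament protein of umbrella cells. GRHL3 is a grainyhead transcription factor needed for umbrella cell differentiation, and PPARG is a nuclear receptor that drives urothelial differentiation, as well as fat cell differentiation elsewhere.

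Sequences are shown for 3 members: *Upk1a*, whose profile lay nearest the mean of the plaque uroplakins, *Upk3a*, which stood apart from them in the genotype ratio at E18.5, and *Krt20*, which had the widest range. Each is the 250 bases just before the transcription start in RefSeq (GRCm38.p6), at chr7:30612735-30612984 on the minus strand for *Upk1a*, chr15:85016891-85017140 on the plus strand for *Upk3a* and chr11:99438154-99438403 on the minus strand for *Krt20*. Capitals mark matches to AGATAA (the GATA motif, here as its complement TTATCT) and TATAAA (the TATA box).
Upk1a: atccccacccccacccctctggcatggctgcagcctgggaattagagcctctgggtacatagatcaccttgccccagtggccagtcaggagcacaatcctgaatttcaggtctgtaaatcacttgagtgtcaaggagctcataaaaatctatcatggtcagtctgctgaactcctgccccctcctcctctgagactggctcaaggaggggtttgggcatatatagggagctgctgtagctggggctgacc
Upk3a: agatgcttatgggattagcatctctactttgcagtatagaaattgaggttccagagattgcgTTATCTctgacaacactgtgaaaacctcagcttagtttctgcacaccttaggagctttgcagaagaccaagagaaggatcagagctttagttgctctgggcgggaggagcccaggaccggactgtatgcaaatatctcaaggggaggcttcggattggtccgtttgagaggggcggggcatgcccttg
Krt20: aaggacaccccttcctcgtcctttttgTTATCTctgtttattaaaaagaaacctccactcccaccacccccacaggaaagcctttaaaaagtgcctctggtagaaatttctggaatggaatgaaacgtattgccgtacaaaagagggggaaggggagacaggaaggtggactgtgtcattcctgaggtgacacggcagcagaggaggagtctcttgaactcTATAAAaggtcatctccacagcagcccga
The motifs were searched on both strands in windows that also held the first 50 transcribed bases. AGATAA lay 188 bases before the start of *Upk3a* and 223 bases before that of *Krt20*, and 11.2% of all 32851 promoters in the same table held it. TATAAA lay 29 bases before the start of *Krt20* and of 1 of the 3 *Pparg* promoters, against 13.6% of all promoters. CACCC, the core of sites for KLF factors, was in 6 of 8 member windows and in 57.5% of all. The grainyhead motif AACNNGTT (4.2% of all promoters), the forkhead motif TGTTTNC (20.5%) and a direct repeat of AGGTCA spaced by 1 base (0.0396%), which PPARG with RXR binds, were not found in the 8 windows. The windows covered *Upk1a*, *Upk3a*, *Upk3b*, *Krt20*, *Grhl3* and *Pparg*; *Upk1b* and *Upk2* are named only.

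*Krt20* was also among the genes for which the study listed RT-qPCR primers, shown here because they mark the part of the transcript that was assayed.
Krt20_f: agttttcaccgaagtctgagttc
Krt20_r: gtagctcattacggctttggag
Both primers matched the *Krt20* transcript once and lay in coding sequence of exon 1 of 8, at chr11:99438057-99438079 and chr11:99437912-99437933 (GRCm38, minus strand). They bound an amplicon of 168 bases. The RT-qPCR values were not analysed here.

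FPKM divides the reads on a gene by the length of its transcript and by the mapped reads of the library, so levels of different genes can be compared within a library, while ratios between libraries still depend on how the libraries are scaled. From the FPKM of single reads, about 64000000, 55700000, 29000000 and 52400000 mapped reads were estimated for E16.5 wild type, E16.5 mutant, E18.5 wild type and E18.5 mutant. The E18.5 wild type library stood apart from the others. It had the lowest depth, its FPKM summed to 375826 against 460392 to 504136 in the others, and ratios made with it moved with the GC content of transcripts (Spearman rho 0.44 across 11658 genes at E18.5 and -0.50 across 11682 genes between wild type stages, against 0.03 across 12066 genes at E16.5). Without that library, rho was -0.23 across 12021 genes between mutant stages and -0.18 across 12018 genes for the E18.5 mutant over E16.5 wild type. These correlations are across genes, which are not independent replicates. The member ratios between genotypes at E18.5 are therefore also given under other scalings, and the stage comparison also without that library. Shares and the wider gene lists are given as deposited. *Tbx18* itself had 3.47 and 2.50 FPKM in E16.5 wild type and mutant UGS, and 3.16 and 2.93 FPKM at E18.5. The knock-in locus can still give transcript, so these values do not check the genotype labels.

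The tissue held epithelium in every library. All 13 genes of a general epithelial list were at or above 1 FPKM in the 4 libraries, *Epcam*, a surface adhesion protein of epithelia, between 48.3 and 64.7 FPKM. *Krt5*, a keratin of basal cells, lay between 59.8 and 104.0 FPKM and *Krt8*, a keratin of luminal cells, between 59.0 and 117.9 FPKM. Because whole UGS was sequenced, fewer cells of a type and less RNA per cell cannot be told apart in any value that follows.

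The tetraspanin uroplakins were the most abundant members. *Upk1b* (chromosome 16, 38773297 to 38800316 in the coordinates of the deposited table, whose genome build is not given in the sources used here) had 98.6 FPKM in E16.5 wild type, 69.6 in E16.5 mutant, 138 in E18.5 wild type and 134 in E18.5 mutant UGS. *Upk1a* (chromosome 7, 31388111 to 31397753) had 83.6, 56.7, 108 and 125 FPKM in the same order. Both were lowest in the E16.5 mutant and higher in both E18.5 libraries than in either E16.5 library. In each library *Upk1b* was at or above at least 94.1% of the 15023 genes that reached 1 FPKM in any library, and *Upk1a* at or above at least 92.4%.

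Their single-span partners were somewhat lower. *Upk2* (chromosome 9, 44260798 to 44262850) had 45.4, 32.1, 72.1 and 77.6 FPKM in the same order of libraries. Its order was that of *Upk1a*, and like both tetraspanins it was lowest in the E16.5 mutant and higher at E18.5 in both genotypes. *Upk3a* (chromosome 15, 84847571 to 84852990) had 55.4, 46.0, 56.8 and 110 FPKM. As deposited, *Upk3a* had nearly the same level in wild type UGS at both stages, and the E18.5 mutant was the high library.

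*Upk3b* (chromosome 5, 136514366 to 136520863), the uroplakin shared with mesothelium, had 12.2, 12.9, 17.3 and 22.2 FPKM in the same order. It was the least abundant uroplakin in every library, and the only one that was not lowest in the E16.5 mutant.

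The 3 differentiation genes were lower than the plaque uroplakins throughout. *Krt20* (chromosome 11, 99289717 to 99299467) had 1.63, 0.638, 5.24 and 6.21 FPKM, from about 179, 61, 261 and 558 reads. It had the widest range of the members, 9.74-fold from the E16.5 mutant to the E18.5 mutant. *Grhl3* (chromosome 4, 135097803 to 135129535) had 11.1, 8.43, 9.87 and 8.88 FPKM, the narrowest range, 1.31-fold. *Pparg* (chromosome 6, 115311239 to 115440419) had 3.71, 3.24, 7.64 and 6.10 FPKM. It was higher in both E18.5 libraries than in either E16.5 library, as *Krt20* was, while *Grhl3* was highest in E16.5 wild type.

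**Figure D1:**
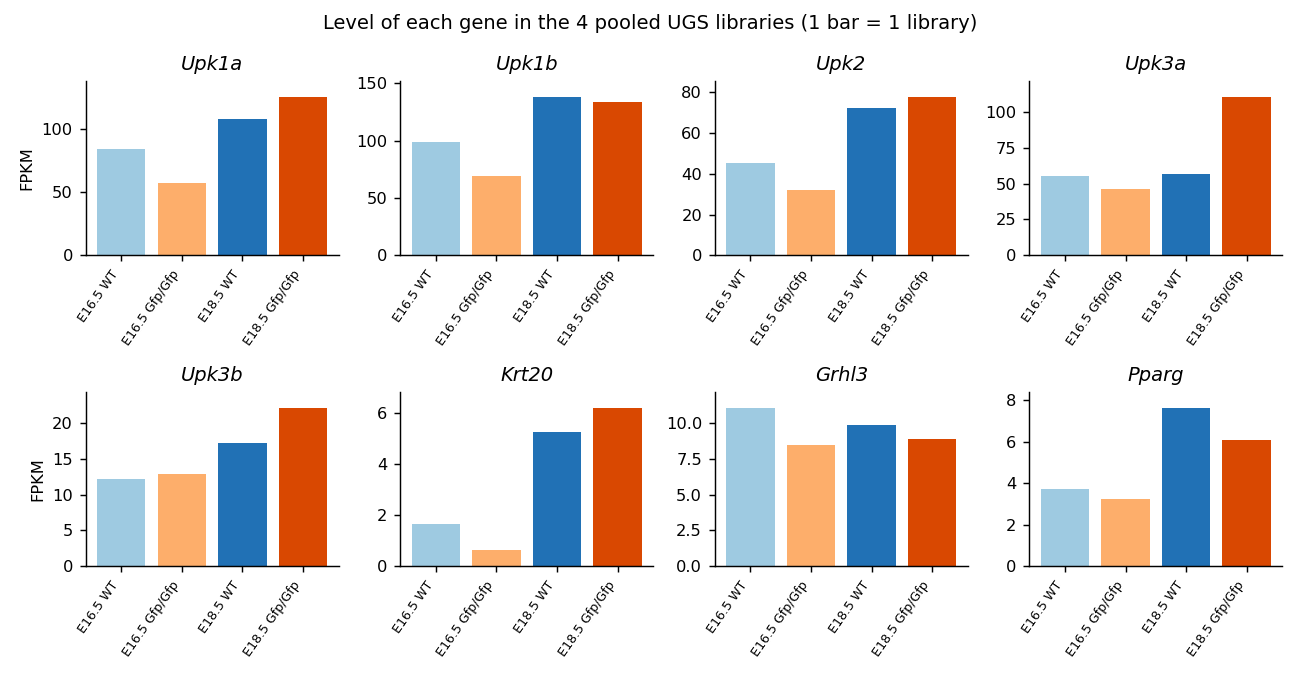
FPKM of the 8 genes in the 4 libraries, 1 panel per gene with its own scale from 0 and 1 bar per library, with no error bar because each bar is 1 pool. Of the 8 genes, 7 stood higher in both E18.5 libraries than in both E16.5 libraries, and *Grhl3* stayed between 8.43 and 11.1 FPKM.

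The order of the genes was nearly the same in the 4 libraries. In each, *Upk1b* led, then *Upk1a*, and *Upk3b* and *Grhl3* followed the plaque uroplakins. *Upk3a* stood above *Upk2* except in E18.5 wild type, where *Upk2* had 72.1 and *Upk3a* 56.8 FPKM. *Pparg* stood above *Krt20* except in the E18.5 mutant, where *Krt20* had 6.21 FPKM (95% 5.71 to 6.75) and *Pparg* 6.10 FPKM (5.63 to 6.60). That was the only pair of neighbours in any library whose counting intervals overlapped.

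At E16.5, 7 of the 8 genes were lower in *Tbx18Gfp/Gfp* than in wild type UGS, and *Upk3b* was 1.06-fold higher. Of 14761 genes that reached 1 FPKM in at least 1 of the compared libraries, 45.7% were lower. The median log2 ratio of the members was -0.45, against 0.01 for all genes. All 8 members passed this filter here and in each of the other comparisons. Only *Krt20* was at least 1.5-fold lower, and also at least 2-fold lower, where 2.72% and 1.17% of all genes were, and no member was at least 1.5-fold higher, where 1.44% of all genes were.

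*Krt20* was 2.56-fold lower in the E16.5 mutant (log2 ratio -1.35, 95% -1.80 to -0.93). Its mutant level, 0.638 FPKM, was under 1 FPKM, so a filter that asks for 1 FPKM in both libraries drops it. The tetraspanin gene *Upk1a* was 1.47-fold lower (log2 ratio -0.56, -0.62 to -0.50) and *Upk1b* 1.42-fold lower (-0.50, -0.55 to -0.46). *Upk2* was 1.41-fold lower (-0.50, -0.59 to -0.41), close to both tetraspanins. *Upk3a* was 1.21-fold lower (-0.27, -0.35 to -0.19). Its interval did not overlap those of the other plaque uroplakins, so its difference was smaller by more than counting error, the only error covered. *Grhl3* was 1.31-fold lower (-0.39, -0.50 to -0.29). *Pparg* had a log2 ratio of -0.19 with an interval that reached 0 (-0.40 to 0.01), so its difference was not detectable at this depth.

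Other epithelial genes were measured beside these. The summed FPKM of the 13 general epithelial genes in the E16.5 mutant was 0.921 of that in wild type, and that of 10 keratins 0.767, against 0.736 for the 5 uroplakins. Relative to the general epithelial sum, the uroplakins came to 88.5 FPKM per 100 FPKM of that list in wild type and 70.7 in the mutant, and the log2 ratios of the members ranged from -1.24 for *Krt20* to 0.20 for *Upk3b*. Relative to the 10 keratins, the uroplakins came to 25.9 and 24.8 FPKM per 100 FPKM. Smooth muscle genes, a list added after the values were seen, summed to 0.542 of wild type, and 13 mesenchyme genes to 1.07. All 10 smooth muscle genes were lower, where 45.7% of all genes were. The part of these shifts in the member ratios was not tested.

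At E18.5, the genotype ratios were small and depended on the scaling. As deposited, 5 of 8 members were higher in the mutant, where 69.5% of the 14733 genes were higher. The median of the members was 0.16 and that of all genes 0.31. *Upk3a* was the only member at least 1.5-fold higher, where 33.2% of all genes were, so a 1.5-fold difference upward was common in this comparison. No member was at least 2-fold different.

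*Upk3a* stood at 56.8 FPKM in wild type against 110 FPKM in mutant UGS, 1.94-fold higher (log2 ratio 0.96, 95% 0.87 to 1.04). *Upk3b* was 1.29-fold higher (0.36). *Upk1a* and *Upk2* had log2 ratios of 0.21 and 0.11, *Krt20* of 0.25 (0.03 to 0.46), and *Upk1b* of -0.04 (-0.09 to 0.00). *Grhl3* (-0.15, -0.29 to -0.02) and *Pparg* (-0.32, -0.51 to -0.14) were lower in the mutant. *Upk3a* thus stood apart from the other uroplakins, whose log2 ratios ran from -0.04 to 0.36. Between mutant stages its log2 ratio (1.26) was close to those of *Upk2* (1.27) and *Upk1a* (1.14). Between wild type stages it had 0.03 as deposited, under the 0.37 of *Upk1a*, 0.49 of *Upk1b* and 0.67 of *Upk2*.

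The sign of several E18.5 ratios turned with the scaling. Relative to the median of all genes, *Upk1a* had -0.08, *Upk2* -0.18 and *Krt20* -0.04, and after a trend with transcript length and GC was subtracted they had -0.50, -0.71 and -0.14. *Upk3a* stayed higher under each scaling tried, at 0.67 relative to the median and 0.14 after the trend was subtracted. *Grhl3* (-0.44 and -0.55) and *Pparg* (-0.61 and -0.72) stayed lower under each. At E16.5, by contrast, 7 of the 8 members kept their sign under every scaling tried, the exception being *Upk3b*.

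**Figure D2:**
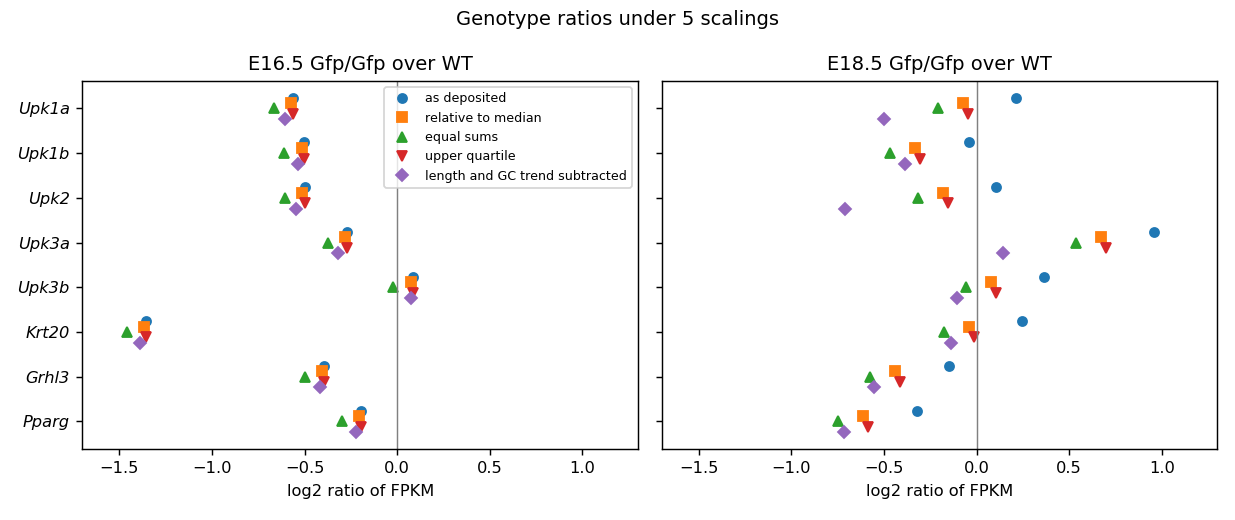
log2 ratio of FPKM, mutant over wild type, for the 8 genes (rows) at E16.5 (left) and E18.5 (right), each as deposited and under 4 other scalings, with 1 symbol per scaling. At E16.5 the symbols of a gene lie close together and all but those of *Upk3b* lie below 0, while at E18.5 those of *Upk1a*, *Upk2*, *Upk3b* and *Krt20* lie on both sides of 0 and only *Upk3a* is above 0 throughout.

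In wild type UGS, 7 of 8 members were higher at E18.5 than at E16.5, where 27.7% of all genes were. The median of the members was 0.49 and that of all 14807 genes -0.35. *Krt20* was 3.21-fold higher (log2 ratio 1.68) and *Pparg* 2.06-fold higher (1.04), the 2 members at least 2-fold higher, where 2.70% of all genes were. *Upk2* (0.67) was the third at least 1.5-fold higher, where 6.80% of all genes were, and *Upk3b* (0.50), *Upk1b* (0.49) and *Upk1a* (0.37) were higher by less. *Upk3a* had a log2 ratio of 0.03 as deposited (95% -0.06 to 0.13). That value depended on the scaling, being 0.37 when centred on all genes, 0.33 with equal sums or upper quartiles, and 0.89 after the trend was subtracted. *Grhl3* was lower (-0.17), and was higher relative to the median of all genes (0.16).

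In *Tbx18Gfp/Gfp* UGS all 8 members were higher at E18.5 than at E16.5, where 35.3% of the 14713 genes were. The median was 1.04 against -0.06 for all genes. *Krt20* was 9.74-fold higher (log2 ratio 3.28), *Upk2* 2.42-fold (1.27), *Upk3a* 2.40-fold (1.26) and *Upk1a* 2.205-fold (1.14), the 4 members at least 2-fold higher, where 1.35% of all genes were. *Upk1b* (0.95), *Pparg* (0.91) and *Upk3b* (0.78) were at least 1.5-fold higher too, which makes 7 members, where 3.00% of all genes were. *Grhl3* had a log2 ratio of 0.07 (-0.04 to 0.19), and its difference was not detectable at this depth.

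The stage comparison was also made without the E18.5 wild type library, with the E18.5 mutant set against E16.5 wild type, so that genotype and stage both differed. In that comparison *Krt20* was 3.81-fold higher, the only member at least 2-fold higher, where 1.23% of 14766 genes were. *Upk3a* (log2 ratio 0.99), *Upk3b* (0.87), *Upk2* (0.77) and *Pparg* (0.72) were the others at least 1.5-fold higher, where 3.06% of all genes were. *Upk1a* had 0.58, *Upk1b* 0.44 and *Grhl3* -0.32. The comparisons between stages and the comparison at E18.5 share libraries, so they are not independent of each other.

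**Figure D3:**
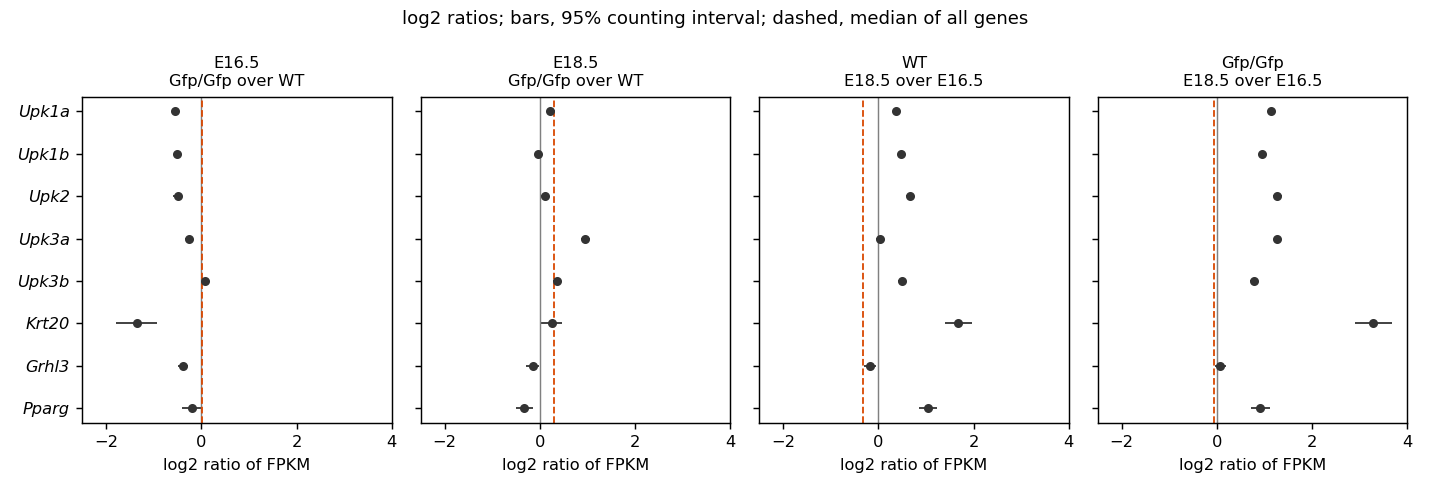
log2 ratio of FPKM for the 8 genes in 4 comparisons (panels), with bars for the 95% counting interval, a solid line at 0 and a dashed line at the median of the genes that reached 1 FPKM in both libraries. Of the 8 genes, 7 lie left of 0 in the E16.5 panel and all 8 right of 0 in the mutant stage panel, with *Krt20* farthest out in both.

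Across the 4 libraries, the total of the uroplakin pool had a wider range than the share of any single uroplakin. Between genotypes this did not hold. The *Upk3b* share at E16.5 (4.1% in wild type and 5.9% in mutant) and the *Upk3a* share at E18.5 differed by a larger factor than the total. The 5 uroplakins summed to 295, 217, 392 and 469 FPKM in E16.5 wild type, E16.5 mutant, E18.5 wild type and E18.5 mutant UGS. *Upk3a* made up 18.8% and 21.2% of the sum at E16.5, and 14.5% and 23.5% at E18.5, wild type first. *Upk1b* was 1.78 and 1.51 times its partner *Upk3a* at E16.5, and 2.43 and 1.21 times at E18.5. The other pair was steadier, *Upk1a* being 1.84, 1.77, 1.496 and 1.61 times *Upk2* in the same order. Among the paired genes, the ratio that involves *Upk3a* thus had the wider range.

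**Figure D4:**
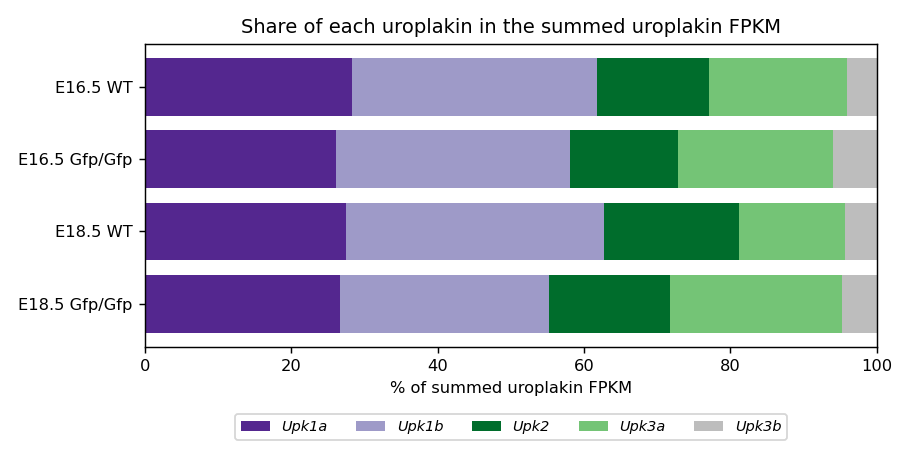
Share of each uroplakin in the summed FPKM of the 5, 1 stacked bar per library, in percent. The *Upk3a* segment is 14.5% in E18.5 wild type and 23.5% in the E18.5 mutant, while *Upk1b* makes up 28.6% to 35.2% in the 4 libraries.

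Genes that carry uroplakins to the surface were followed as a list of 12 trafficking genes. At E16.5, 4 were higher and 8 lower in the mutant, where 45.7% of all genes were lower, and 1 was at least 1.5-fold lower, where 2.72% of all genes were. This was *Snx31* (14.3 and 9.36 FPKM, log2 ratio -0.61), a sorting nexin that binds uroplakins. At E18.5 *Snx31* had 18.51 and 21.31 FPKM (0.20). Its profile over the 4 libraries was among the 3 nearest to the mean profile of the 4 plaque uroplakins out of 10847 genes. The list as a whole had median log2 ratios of -0.09 at E16.5 and 0.05 at E18.5, and no member was at least 2-fold different between genotypes.

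Of 16 transcription factors and signals of urothelial differentiation, 12 were lower and 4 higher in the E16.5 mutant, where 45.7% of all genes were lower, with a median log2 ratio of -0.16 and none past 1.5-fold. At E18.5, 6 were at least 1.5-fold lower in the mutant, where 7.60% of all genes were, and 1 was at least 2-fold lower, where 2.89% were. Another 7 of the 16 were higher, where 69.5% of all genes were. Only 1 was at least 1.5-fold higher (*Irf1*, log2 ratio 0.70), where 33.2% of all genes were. The gene at least 2-fold lower was *Klf5*, a zinc finger factor of epithelial progenitors, with 23.1, 18.1, 65.2 and 14.3 FPKM in E16.5 wild type, E16.5 mutant, E18.5 wild type and E18.5 mutant. The E18.5 wild type library, which stood apart, was the high one. *Foxa1*, a forkhead factor of luminal epithelia, had 19.4, 14.4, 30.0 and 15.3 FPKM in the same order, *Trp63*, a factor of basal cells, 10.7, 7.93, 15.5 and 8.39 FPKM, and *Gata3* 34.3, 34.8, 40.6 and 27.0 FPKM. E18.5 wild type was the high library for these as well. *Grhl1* and *Grhl2*, relatives of *Grhl3*, had 5.91 and 4.07, and 6.47 and 5.92 FPKM, in wild type and mutant at E16.5, both lower in the mutant. *Rxra*, the partner of PPARG, had 23.7, 23.4, 14.1 and 20.4 FPKM in the 4 libraries.

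The other surface genes included *Psca*, a lipid-anchored surface protein of urothelium, with 162, 124, 282 and 163 FPKM, and *Upk3bl*, a uroplakin 3B-like gene listed under another symbol, with 12.1, 8.55, 1.79 and 6.49 FPKM. *Upk3bl* was thus lowest in E18.5 wild type, opposite to *Psca*. The keratin list, in which *Krt20* was not included, had 7 of 10 genes lower in the E16.5 mutant, 2 of them at least 1.5-fold, where 45.7% of all genes were lower and 2.72% at least 1.5-fold lower. At E18.5, 8 of 10 were higher in the mutant, near the 69.5% of all genes. Between wild type stages 9 of 10 keratins were lower at E18.5, where 10700 of 14807 genes were. Of the keratins, 7 were at least 1.5-fold lower, where 35.9% of all genes were. Their median log2 ratio was -0.78 as deposited and 0.002 after the length and GC trend was subtracted. Between mutant stages 6 of 10 were lower, with a median of -0.20, where 35.3% of all genes were higher. *Krt20* was higher at E18.5 in both stage comparisons.

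Of the genes known to respond to PPARG, *Fabp4*, a fatty acid carrier, had 32.3, 20.3, 94.7 and 98.4 FPKM in the 4 libraries. Like *Pparg*, it was higher in both E18.5 libraries than in either E16.5 library. The defining adipocyte genes were near 0, with *Adipoq* at most 0.015 FPKM, and 6 of 10 adipocyte genes were under 1 FPKM in every library. The intestinal list had only *Lgals4* at or above 1 FPKM among 7 measured genes. For *Upk3b*, 6 mesothelial genes were followed. *Msln* had 12.3, 7.17, 2.99 and 6.88 FPKM, *Wt1* 15.2, 20.5, 22.8 and 16.3 FPKM, while the summed level of the list lay between 29.7 and 35.3 FPKM, but its genes went different ways. Of the 5 that passed the filter, 4 were higher in the E16.5 mutant (median log2 ratio 0.59), where 45.7% of all genes were lower. *Upk3b* was the only higher member there. In wild type, 4 were higher at E18.5 than at E16.5 (0.94), where 27.7% of all genes were. Among them was *Muc16* (0.892, 1.42, 4.68 and 2.08 FPKM in the 4 libraries). At E18.5, 4 of the 5 were lower in the mutant (-0.25), where *Upk3b* and 69.5% of all genes were higher. Whether mesothelium contributes to the *Upk3b* level was not tested.

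Epithelial gene lists differed in how their levels compared between stages. Relative to E16.5 wild type, the summed uroplakins stood at 1.33 in E18.5 wild type and 1.59 in the E18.5 mutant, while the general epithelial genes stood at 0.686 and 0.823 and the keratins at 0.56 and 0.746. The 3 other surface genes stood at 1.59 and 0.998, and 14 stratified squamous genes at 3.43 and 1.22. *Sprr1a* made up most of the squamous sum, 822 of 877 FPKM in E18.5 wild type. Between wild type stages, 3 of the 10 squamous genes that passed the filter were higher at E18.5 and 7 lower. Their median log2 ratio was -0.76, and 27.7% of all genes were higher. Per 100 FPKM of the general epithelial list there were 171 FPKM of uroplakins in both E18.5 libraries, against 88.5 and 70.7 at E16.5. Smooth muscle genes stood at 1.201 in E18.5 wild type and 3.09 in the E18.5 mutant, and mesenchyme genes at 1.06 and 1.26. All 10 smooth muscle genes were higher in the mutant than in E18.5 wild type, where 69.5% of all genes were. The part of these other cell types in the uroplakin levels was not tested.

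**Figure D5:**
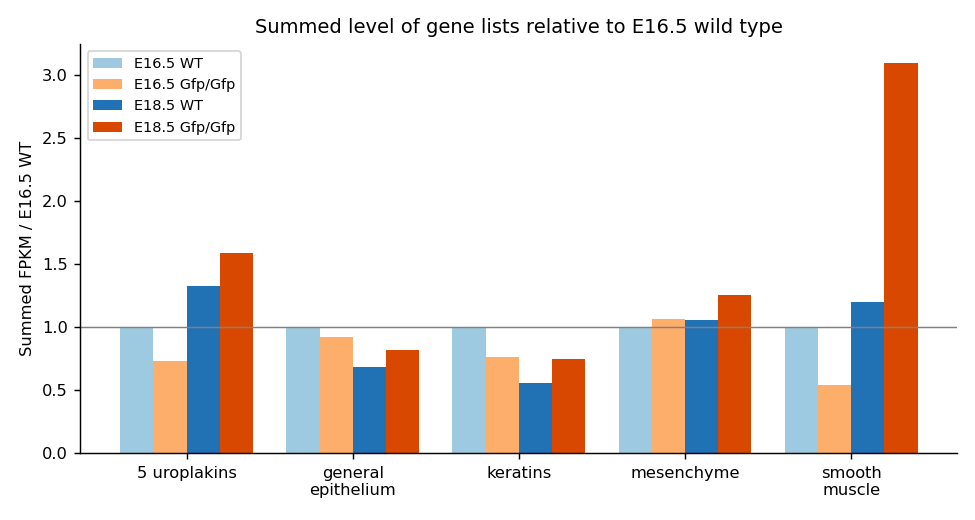
Summed FPKM of 5 gene lists in each library, divided by the sum in E16.5 wild type, with 1 bar per library and a line at 1. The uroplakin bars reach 1.33 and 1.59 at E18.5 while those of the general epithelial genes stay at 0.686 and 0.823, and the smooth muscle bar of the E18.5 mutant reaches 3.09.

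The genes whose 4-library profiles were nearest to the mean profile of the 4 plaque uroplakins were *Paqr5* (distance 0.104 on the log2 scale), *Tspan2* (0.118), *Snx31* (0.127), *Lpp*, *Synpo2*, *Ppp1r12a*, *Gstm1*, *Fhl1*, *Dstn* and *Rgs2* (0.253). Distances of the members themselves from that mean were 0.10 for *Upk1a*, 0.245 for *Upk2*, 0.257 for *Upk1b* and 0.493 for *Upk3a*. *Krt20* was nearest to *1110032A04Rik*, *Fabp4* and *Myh11* (0.53 to 0.62), *Grhl3* to *Peg13*, *Osr1* and *Gatm* (0.04 to 0.07), and *Pparg* to *Ly6d*, *Slmap* and *Prelp* (0.15 to 0.18). With 4 points a profile, such likeness is a description only.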

How the data were processed

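RNA-Seq was made from whole male UGS as 4 stranded mRNA libraries, 1 per genotype and stage, each from a pool of 3 embryos. Per the labels the authors used CASAVA 1.8.2, Trimmomatic 0.30, TopHat2 2.1.0 and Cufflinks 2.2.1. The authors deposited FPKM, 1 column per library for 25819 rows, with no further scaling between libraries stated; the genome build is not given in the sources used here. Depth was estimated from single reads on olfactory receptor genes of 1 exon (17 to 28 in each library) and turned into read numbers for exact intervals.

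Folds are ratios of FPKM without a pseudocount, for genes that reached 1 FPKM in 1 or both libraries, counted at 2-fold and 1.5-fold. Alternatives were equal sums, centring on the median, upper quartile scaling (75th percentile), pseudocounts of 0.1 and 1, other filters, repeated symbols left out (55 rows), and a lowess trend (span 0.3) on transcript length and GC content subtracted, from GENCODE values for 20466 rows, 83.9% of those with 1 FPKM in any library. The comparison without the E18.5 wild type library and the smooth muscle list were added after the values were seen.

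The members and the 12 gene lists (121 genes) were chosen with earlier results of these data known. The genes named are the 8 members, list genes past 2-fold between genotypes, a set of markers and the nearest genes by profile; not all are given, and some list genes were chosen after their values were seen. *Muc2*, whose symbol is repeated, was left out. The summary of the PPARG target list is not reported here. The steps were tested on simulated data. Promoters are from RefSeq (GRCm38.p6). Computing was in Python 3.11.15 (scipy 1.17.1, pandas 2.3.3, numpy 2.4.6, matplotlib 3.10.9, statsmodels 0.14.6).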

Additional observations from a re-analysis of the deposited data

Results flagged for a closer look

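The members *Upk1a*, *Upk2*, *Upk3a* and *Krt20* lay on opposite sides of 0 in the genotype comparisons at E16.5 and E18.5, each from 1 library per group, and the difference between the stages was not tested. *Upk1a* had log2 ratios of -0.56 at E16.5 and 0.21 at E18.5, *Upk2* of -0.50 and 0.11, *Upk3a* of -0.27 and 0.96, and *Krt20* of -1.35 and 0.25. The E18.5 values of *Upk1a*, *Upk2* and *Krt20* turned below 0 under other scalings, so for these the opposite direction rests on the FPKM as deposited, while that of *Upk3a* was above 0 at E18.5 under each scaling tried.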

How the results depend on the processing

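No paired analysis was possible because each group held 1 library and the labels give no replicate numbers. At E16.5, the count of members at least 2-fold lower, 1 as deposited, was 0 with at least 1 FPKM in both libraries, at least 5 FPKM in either, or a pseudocount of 1. The count at least 1.5-fold lower, also 1, was 4 with equal sums, 2 with a length and GC trend taken off and 0 under either of those filters. The E16.5 median was -0.55 with equal sums, and *Upk3b* then had -0.021. At E18.5 the median of 0.16 turned to -0.26 with equal sums, -0.13 when centred on all genes, -0.10 with upper quartiles equal and -0.44 when the length and GC trend was taken off. In the same order *Upk1a* had -0.21, -0.075, -0.049 and -0.50, *Upk2* -0.32, -0.18, -0.16 and -0.71, and *Krt20* -0.18, -0.042, -0.015 and -0.14, while *Upk3b* had -0.060 with equal sums and -0.11 with the trend taken off. Between wild type stages the median of 0.49 was 0.79, 0.83, 0.79 and 1.09 under these scalings and 0.75 without the E18.5 wild type library, and *Grhl3* turned from -0.17 to 0.13, 0.16, 0.13 and 0.27. The count of 2 at least 2-fold higher there was 1 with a pseudocount of 1, 5 with the trend subtracted and 1 without that library, and the count of 3 at least 1.5-fold higher was 6 with equal sums, centring or upper quartiles, 7 with the trend taken off and 5 without that library. The mutant stage median was 0.95 with at least 1 FPKM in both libraries, which drops *Krt20*. Of the single member ratios under alternatives, 239 moved by less than counting error, 66 by more and 19 turned in sign. Other filters and leaving out repeated symbols cannot change the ratio of a single gene. Their entries among the 239 were thus fixed in advance, and the tally does not measure robustness. The causes were not tested. Depth limits *Krt20* most, with 61 reads in the E16.5 mutant, and single pools leave the spread between embryos unknown.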

Other observations

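*Sprr1a*, a cornified envelope gene of stratified epithelia, had 199, 141, 822 and 268 FPKM in E16.5 wild type, E16.5 mutant, E18.5 wild type and E18.5 mutant UGS, and *Ivl*, another envelope protein gene, 9.63, 8.82, 25.9 and 17.5 FPKM. Both were highest in the E18.5 wild type library. *Cnfn* had 1.54 FPKM in E16.5 wild type and 0.17 to 0.235 FPKM in the others. Of 9 tight junction genes, 5 were higher and 4 lower in the E18.5 mutant, where 69.5% of all genes were higher. *Cldn4* had 38.2, 35.1, 18.8 and 36.4 FPKM in the 4 libraries and *Cldn7* 25.8, 28.2, 8.97 and 20.0 FPKM, both lowest in E18.5 wild type, while *Tjp1* had 29.5, 27.5, 39.1 and 26.1 FPKM and was highest there.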
